A study of Homo sapiens with 6 samples.

Results

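The G1/S and DNA replication genes are 49 protein-coding genes that act when a cell commits to S phase and copies its DNA. They were chosen by name, by their known role, and all 49 were found among the 58735 genes of the deposited expression table. All 49 also reached 1 FPKM (fragments per kilobase of gene, scaled by library) in at least 3 of the 6 libraries, the filter that left 13578 genes for testing. Every library was labelled BxPC-3, a long-established line of human pancreatic adenocarcinoma cells, and no genetic change is named for either group. The 3 PRMT5i libraries came from cells given GSK3326595, an inhibitor of the arginine methyltransferase PRMT5. The 3 DMSO libraries are its control, DMSO being the solvent. Neither the dose nor the time of treatment is stated in the labels. They also do not say that replicates were separate cultures, and the p-values then describe the spread of these libraries alone, which may be technical. The series' design text speaks of a knockdown, the library labels of an inhibitor, and the labels were followed.

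Before S phase, the origin recognition complex, CDC6 and CDT1 load the MCM2-7 ring onto DNA, and CDC45 and the GINS complex then join it to form the active helicase. DNA polymerase alpha-primase lays down short RNA-DNA primers, which polymerases delta and epsilon extend while held by the PCNA clamp, and ribonucleotide reductase supplies the deoxynucleotides. Many of these genes are transcribed under the control of E2F factors, which are released from the retinoblastoma protein once cyclin-dependent kinases are active, and cyclin E with its kinase drives that step.

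The libraries held 14087260 to 15724750 reads each. PRMT5 mRNA itself was lower in every PRMT5i library, 23.2, 24.6 and 26.2 FPKM in DMSO and 13.4, 12.8 and 12.1 FPKM in PRMT5i (log2 fold change -0.90, adjusted p = 0.0049, limma). An inhibitor acts on the protein and a knockdown on the mRNA. Whether the fall came with the labelled inhibitor or with the knockdown of the design text was not tested. PRMT5i replicate 2 stood apart. Its log2 values correlated with those of PRMT5i replicates 1 and 3 at r = 0.906 and 0.904, against 0.98 between those 2, and 11.3% of its reads were mitochondrial, against 4.70% to 6.03% in the other 5 libraries. Results are therefore given with and without it. Of 11 pancreatic ductal and epithelial markers, 5 reached 1 FPKM, among them KRT7, KRT8, KRT18 and MUC1, but KRT19, CEACAM6, PDX1 and ESRP1 had 0 reads in every library and EPCAM and CDH1 stayed under 0.5 FPKM. The absence or near absence of these 6 listed markers goes against the labelled BxPC-3 identity in part, and the cells are called by their label only. Markers of other cell types were low. Of 6 fibroblast markers only COL1A1 reached 1 FPKM (list sum 4.23 to 4.49 FPKM in DMSO, 5.49 to 10.4 in PRMT5i), and COL1A2, LUM and PDGFRA had 0 reads. The 5 leukocyte markers summed to 1.48 to 1.96 FPKM in DMSO and 1.71 to 2.36 in PRMT5i, with CD3E at 0 reads. The 4 endothelial markers summed to 1.09 to 1.46 FPKM in DMSO and 0.227 to 0.823 in PRMT5i, most of it CDH5, with KDR at 0 reads. The part of these cells in the results below was not tested.

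With all libraries, 5 of the 49 genes rose with the inhibitor and 1 fell. PRIM1, POLA2, RRM2, E2F2 and E2F7 rose by 1.75- to 2.33-fold in mean FPKM, and GINS3 fell 2.34-fold. The remaining 43 did not pass the test (limma on log2(FPKM + 1), adjusted p under 0.05 over all 13578 genes). Their log2 fold changes ran from -0.43 (CCNE1) to 0.77 (POLA1), and 29 of them lay within 0.25 of 0. The share of members called, 12.2%, was below the 17.2% of all genes tested. By direction, 10.2% of the members rose, against 7.18% of all genes, and 2.04% fell, against 10.0%. The median log2 fold change was 0.02 over the members and -0.05 over all genes tested. In the sequencing of a whole culture, fewer cells in a phase of the cycle and less RNA per cell cannot be told apart.

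Without PRMT5i replicate 2 the same 6 genes were called and 8 more joined them. POLA1, POLD3, CDC6, GINS4, E2F1 and DTL rose, so that 11 rose in all, and CCNE1 and CLSPN fell, so that 3 fell. This is 28.6% of the members, again below the 40.6% of all genes called without that library. The 22.4% that rose stand beside 17.5% of all genes, and the 6.12% that fell beside 23.1%. The median log2 fold change was 0.10 over the members and -0.05 over all genes. Leaving out a DMSO library instead cut the calls: without DMSO replicate 1, limma called 0 members, with 8 at an unadjusted p under 0.05, and the calls over all genes fell from 2339 to 478. It called 1 member without DMSO replicate 2 and 2 without DMSO replicate 3, all of them higher. Over the 6 leave-one-out fits POLA2 was called 5 times, E2F2 4 times, GINS3 3 times, and PRIM1, RRM2 and E2F7 2 times each.

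Many more members had groups that did not overlap than passed the test, as was so over all genes tested. Of all genes, 2609 lay apart and higher and 3628 apart and lower, against 2339 called. In 17 members (34.7%) every PRMT5i library lay above every DMSO library, against 19.2% of all genes tested, and in 5 (10.2%) every PRMT5i library lay below, against 26.7%. The other 27 overlapped. The sum over all 49 genes ran from 1340 to 1441 FPKM in DMSO and from 1333 to 1432 in PRMT5i, so the groups overlapped in the total while single members moved apart.

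**Figure D1:**
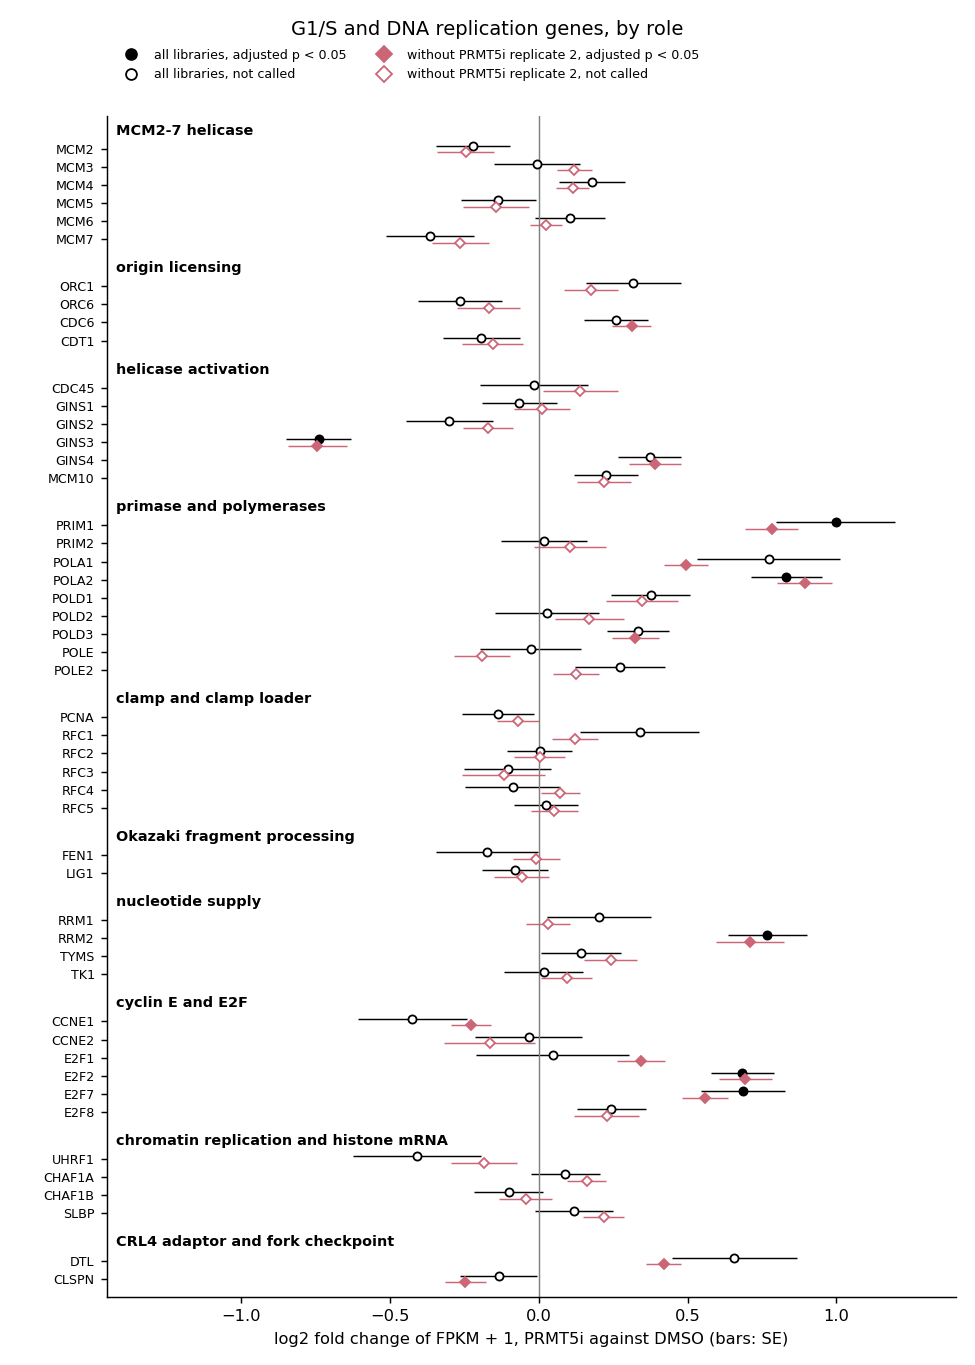
Log2 fold change of FPKM + 1, PRMT5i against DMSO, for each of the 49 genes by role, with bars for the SE. Black circles use all 6 libraries and red diamonds leave out PRMT5i replicate 2, and filled symbols have an adjusted p under 0.05 (limma): 5 circles are filled to the right of 0 and 1, GINS3, to the left.

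No gene of the MCM2-7 helicase was called. MCM2 to MCM7 are the 6 related ATPases of the ring, and 0 of them passed the limma test with or without PRMT5i replicate 2, or limma-voom on recovered reads. At an unadjusted p under 0.05 there were 1 with all libraries and 2 without replicate 2. Their log2 fold changes were -0.22 for MCM2, -0.01 for MCM3, 0.18 for MCM4, -0.14 for MCM5, 0.10 for MCM6 and -0.37 for MCM7, with SEs of 0.11 to 0.15. MCM7 had the highest DMSO mean of all 49 genes, 120 ± 12.8 FPKM (SD, n = 3), and 93.2 ± 11.5 in PRMT5i. The groups of MCM2 and MCM7 did not overlap and lay lower in PRMT5i, those of MCM4 did not overlap and lay higher. Summed over the ring, the level was 381, 379 and 427 FPKM in DMSO and 360, 349 and 382 FPKM in PRMT5i. These sums overlap only through the highest PRMT5i library. The ring binds its subunits in equal number, but their FPKM shares differed. MCM7 made up 30.3 ± 1.1% of the ring's summed FPKM in DMSO and 25.6 ± 2.20% in PRMT5i, and MCM5 7.14 ± 0.462% and 7.04 ± 0.347%. FPKM divides by the listed length, 4386 bases for MCM7 and 7338 for MCM5. The part of length in these shares was not tested.

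Among the origin licensing genes, 0 of 4 were called with all libraries by limma or limma-voom, and 1 had an unadjusted p under 0.05. ORC1 and ORC6 are subunits of the origin recognition complex, with log2 fold changes of 0.32 and -0.26. CDT1, the loading factor that is destroyed once S phase starts, stood at -0.19. CDC6, the ATPase that recruits CDT1 and the MCM ring, measured 19.9, 20.8 and 19.0 FPKM in DMSO and 25.6, 22.2 and 24.3 FPKM in PRMT5i. All PRMT5i values lay above all DMSO values, with replicate 2 the lowest of the 3. The log2 fold change of CDC6 was 0.26 (SE 0.11, adjusted p = 0.144), and without replicate 2 it was 0.31 (adjusted p = 0.0144).

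Helicase activation held the only fall. GINS3, which encodes the PSF3 subunit of the 4-part GINS complex, measured 2.38, 2.26 and 2.38 FPKM in DMSO and 0.992, 1.01 and 0.997 FPKM in PRMT5i. The 3 libraries of each group lay close together and PRMT5i replicate 2 did not stand apart, so that the SD was 0.0692 in DMSO and 0.00924 in PRMT5i (n = 3). The log2 fold change on the log2(FPKM + 1) scale was -0.74 (SE 0.11, adjusted p = 0.0096), and -0.74 without replicate 2 (adjusted p = 0.0031). The values rest on 69 to 190 reads per library, the fewest of any member in its lowest library. In PRMT5i they lay at the 1 FPKM of the filter, which only replicate 2 reached. GINS3 was therefore tested through its DMSO values, the group where it is high. With each library left out in turn, the adjusted p of GINS3 reached 0.0603. In the table GINS3 (ENSG00000181938) spans chr16:58295080-58406144 on the plus strand of hg38.

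The other 3 GINS genes were not called with all libraries. GINS4, the SLD5 subunit, measured 4.78, 4.40 and 4.17 FPKM in DMSO and 5.83, 5.88 and 6.46 FPKM in PRMT5i. Its groups did not overlap, with PRMT5i above DMSO (log2 fold change 0.37, SE 0.11, adjusted p = 0.0574; 0.39 and 0.0160 without replicate 2). GINS1 (PSF1) and GINS2 (PSF2) had log2 fold changes of -0.07 and -0.30, neither called. As a share of the complex's summed FPKM, GINS3 went from 9.38 ± 0.732% in DMSO to 4.49 ± 0.547% in PRMT5i and GINS4 from 17.8 ± 0.894% to 27.1 ± 2.60% (SD, n = 3). No share of GINS3 in PRMT5i reached its lowest share in DMSO. CDC45, the third part of the active helicase, stood at -0.02 and MCM10, which helps to open the ring, at 0.23, neither called. MCM10 was higher in every PRMT5i library than in any DMSO library.

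Of the 9 primase and polymerase genes, 2 rose with all libraries and 4 without PRMT5i replicate 2, and 0 fell in either fit. The shares called, 22.2% and 44.4%, were near the 17.2% and 40.6% of all genes tested. All of these calls were rises, while 7.18% and 17.5% of all genes rose. The median log2 fold change of the 9 genes was 0.33. Of the 4 that rose without replicate 2, 3 belong to DNA polymerase alpha-primase, the 4-subunit enzyme that starts every new strand. PRIM1, its catalytic primase subunit, measured 3.49, 3.81 and 3.66 FPKM in DMSO and 6.48, 11.5 and 7.55 FPKM in PRMT5i. Every PRMT5i library lay above every DMSO library, and replicate 2 was the highest. Its log2 fold change was 1.0 (SE 0.20, adjusted p = 0.0216), the largest rise among the members with all libraries. Without replicate 2 it was 0.78 (adjusted p = 0.0019), below the 0.89 of POLA2. PRIM1 (ENSG00000198056, chr12:56731596-56752373, minus strand) shares 33 exonic bases on the same strand with NACA, which had 33.7 FPKM in DMSO and 32.2 in PRMT5i. NACA had up to 39.1 times the reads of PRIM1. PRIM1 also shares 132 on the opposite strand with HSD17B6, which had 0.639 FPKM in DMSO and 1.37 in PRMT5i, and up to 0.241 times the reads of PRIM1.

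POLA2, the regulatory B subunit that tethers primase to the polymerase, measured 2.01, 2.34 and 2.28 FPKM in DMSO and 4.71, 4.24 and 5.21 FPKM in PRMT5i. The groups were far apart, and here replicate 2 was the lowest of the PRMT5i libraries. The log2 fold change was 0.83 (SE 0.12, adjusted p = 0.0083), and 0.89 without replicate 2 (adjusted p = 0.0015). POLA2 (ENSG00000014138, chr11:65261762-65305589, plus strand) had an adjusted p of at most 0.0568 with any 1 library left out. POLA1, the DNA polymerase subunit, measured 11.8, 11.8 and 10.6 FPKM in DMSO and 17.0, 30.1 and 16 FPKM in PRMT5i. Replicate 2 was 1.83 times the mean of the other PRMT5i libraries, which themselves lay above DMSO. With it the log2 fold change was 0.77 (SE 0.24, adjusted p = 0.0726), and without it 0.49 (adjusted p = 0.0045).

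PRIM2, the large primase subunit, was not called, at 5.83 ± 0.776 FPKM in DMSO and 5.92 ± 0.847 in PRMT5i (log2 fold change 0.02, adjusted p = 0.940). The 4 subunits together gave 23.9, 23.8 and 21.6 FPKM in DMSO and 35.0, 50.9 and 34.6 FPKM in PRMT5i, with no overlap. PRIM2's share of that sum went from 25.2 ± 2.24% to 15.5 ± 4.87%, while PRIM1's went from 15.8 ± 1.15% to 21.0 ± 2.14% (SD, n = 3).

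**Figure D2:**
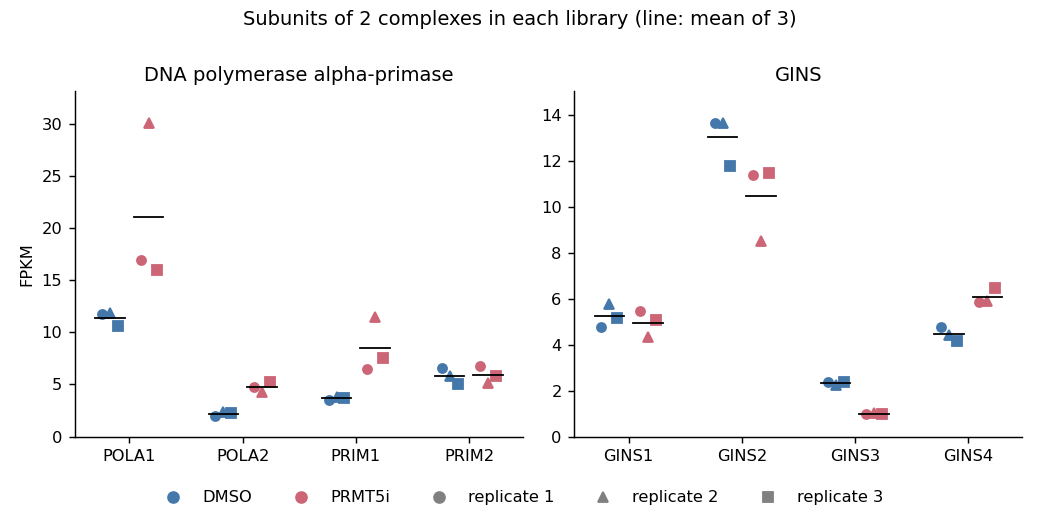
FPKM of the 4 subunits of DNA polymerase alpha-primase (left) and of GINS (right) in each library, DMSO in blue and PRMT5i in red, with the mean of 3 as a line and the symbol marking the replicate number. POLA1, POLA2 and PRIM1 are higher in every PRMT5i library and PRIM2 overlaps, while GINS3 is lower and GINS4 higher in every PRMT5i library.

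No subunit of polymerases delta and epsilon was called with all libraries. POLD3, an accessory subunit of polymerase delta, measured 12.0, 11.4 and 11.3 FPKM in DMSO and 15.8, 15.0 and 13.8 FPKM in PRMT5i. The groups did not overlap (log2 fold change 0.33, SE 0.10, adjusted p = 0.0734; 0.32 and 0.0217 without replicate 2). POLD1, the catalytic subunit of delta, stood at 0.38 (adjusted p = 0.10), also with groups apart, and POLD2 at 0.03. POLE, the catalytic subunit of epsilon, stood at -0.03 and POLE2 at 0.27, neither called in either fit. POLE has the longest listed length of the members, 16609 bases, and replicate 2, at 14.4 FPKM, was its highest library while replicate 1, at 9.17, was its lowest.

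The sliding clamp and its loader held no called gene, 0 of 6 by limma with and without replicate 2, and 0 also at an unadjusted p under 0.05 or by limma-voom. PCNA, the ring that holds polymerases on DNA, measured 93.9 ± 4.69 FPKM in DMSO and 85.4 ± 7.84 in PRMT5i (log2 fold change -0.14). RFC1 to RFC5 form the loader that opens PCNA, and their log2 fold changes were 0.34, 0.00, -0.10, -0.09 and 0.02 in that order. RFC1 was higher in every PRMT5i library, but replicate 2, at 29.7 FPKM, stood well above the 18.6 and 18.5 of the others, and without it the log2 fold change was 0.12. RFC2 had the log2 fold change nearest 0 of the 49 genes, with 23.7 ± 2.16 FPKM in DMSO and 23.7 ± 0.00628 in PRMT5i. FEN1, the nuclease that trims Okazaki fragments, and LIG1, the ligase that joins them, stood at -0.17 and -0.08 and were not called.

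Of the 4 nucleotide supply genes 1 rose. RRM2, the small subunit of ribonucleotide reductase, whose level normally follows S phase, measured 8.06, 7.13 and 6.13 FPKM in DMSO and 12.7, 13.9 and 11.7 FPKM in PRMT5i. All PRMT5i libraries lay above all DMSO libraries. The log2 fold change was 0.77 (SE 0.13, adjusted p = 0.0144), and 0.71 without replicate 2 (adjusted p = 0.0056). RRM2 (ENSG00000171848) spans chr2:10120698-10131419 on the plus strand. RRM1, the large catalytic subunit, was more abundant per length, 74.3 ± 5.20 FPKM in DMSO and 86.8 ± 19.0 in PRMT5i (log2 fold change 0.20, adjusted p = 0.445), with replicate 2 at 109 FPKM and the others at 77.4 and 74.3. The difference between the changes of RRM2 and RRM1 was not tested. TYMS, thymidylate synthase, and TK1, thymidine kinase, stood at 0.14 and 0.02. TYMS shares exonic bases with ENOSF1 on the opposite strand, and the strand setting of the authors' counting is not stated in the labels. In GENCODE 29, which gives all 49 members the same coordinates as the table, 18 members share exonic bases with another gene that has reads. Beside those named above and below, they include MCM2 (with TPRA1), GINS2 (GSE1), RFC4 (EIF4A2), RFC5 (WSB2), FEN1 (TMEM258 and FADS2) and CHAF1B (MORC3). POLA2 and RRM2 share exonic bases on the same strand with AP000944.2 and AC007240.1, each under 1 FPKM. The share of reads this could move was not tested.

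Of the E2F factors, an activator and an atypical repressor rose. E2F2, one of the activator E2Fs, measured 3.96, 4.08 and 4.73 FPKM in DMSO and 7.49, 7.31 and 7.48 FPKM in PRMT5i. The PRMT5i libraries lay close together and above all DMSO libraries (log2 fold change 0.68, SE 0.11, adjusted p = 0.0111; 0.69 and 0.0027 without replicate 2). E2F7, which represses E2F targets without the retinoblastoma family, measured 4.26, 4.76 and 4.38 FPKM in DMSO and 7.23, 9.51 and 6.85 FPKM in PRMT5i. The groups did not overlap, with replicate 2 the highest (log2 fold change 0.69, SE 0.14, adjusted p = 0.0240; 0.56 and 0.0035 without it). E2F8, the other atypical E2F, stood at 0.24, with groups apart but not called, and had the lowest DMSO mean of the members, 1.6 ± 0.103 FPKM. E2F2 (ENSG00000007968) spans chr1:23506430-23531220 on the minus strand, and E2F7 (ENSG00000165891) chr12:77021247-77065580, also on the minus strand.

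The result for E2F1, an activator more abundant per length than E2F2, turned on replicate 2. E2F1 measured 49.5, 47.1 and 54.1 FPKM in DMSO and 61.0, 34.0 and 66.9 FPKM in PRMT5i. Replicates 1 and 3 lay above all DMSO libraries and replicate 2 below all of them. The log2 fold change was 0.05 with all libraries (SE 0.26, the largest among the members, adjusted p = 0.914) and 0.34 without replicate 2 (adjusted p = 0.0197). CCNE1, which encodes cyclin E1, measured 19.4, 18.0 and 19.8 FPKM in DMSO and 16.1, 10.4 and 16.1 FPKM in PRMT5i. All PRMT5i libraries lay below all DMSO libraries, replicate 2 farthest (log2 fold change -0.43, SE 0.18, adjusted p = 0.154; -0.23 and 0.0388 without it). CCNE2, which encodes cyclin E2, stood at -0.03 with 2.21 FPKM in DMSO, and shares exonic bases with INTS8 on the opposite strand, a gene with up to 7.97 times its reads.

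**Figure D3:**
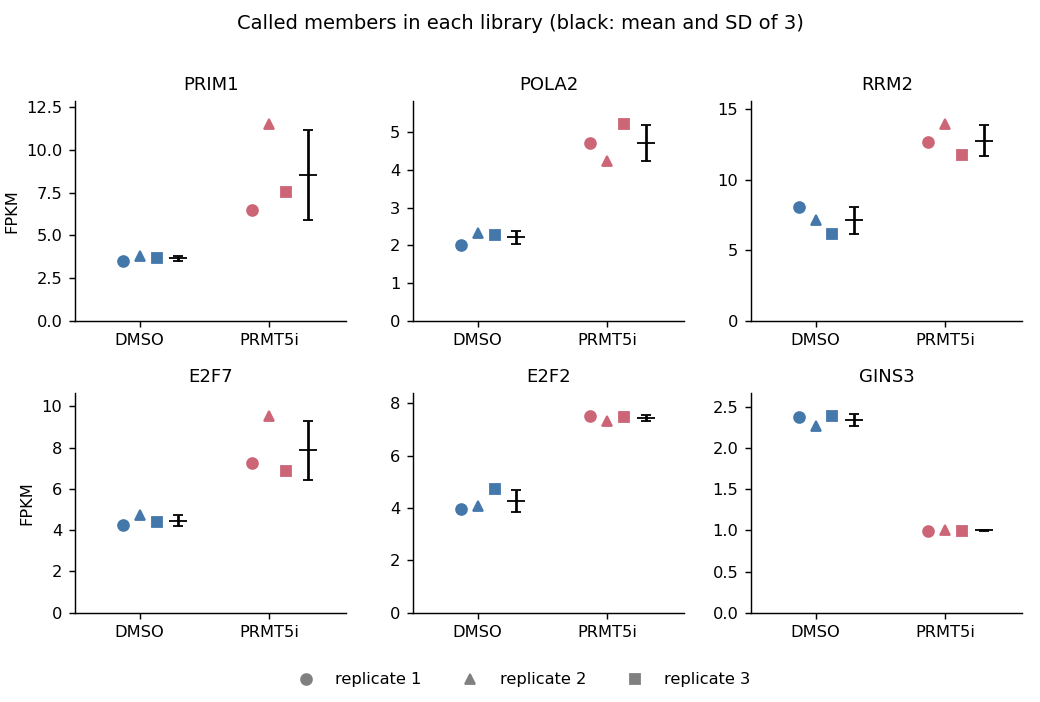
FPKM in each library of the 6 genes called with all libraries, DMSO in blue and PRMT5i in red, the symbol marking the replicate number and black marks giving the mean and SD of 3. PRIM1, POLA2, RRM2, E2F7 and E2F2 are higher and GINS3 is lower in every PRMT5i library.

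Chromatin replication and histone mRNA had 0 of 4 genes called by limma or limma-voom, and 0 at an unadjusted p under 0.05 with all libraries. UHRF1, which brings the maintenance DNA methyltransferase to new DNA, stood at -0.41 (SE 0.22, adjusted p = 0.230), with 30.9, 30.5 and 37.2 FPKM in DMSO and 26.7, 17.6 and 30.7 FPKM in PRMT5i. Its groups overlapped. CHAF1A and CHAF1B, subunits of the chromatin assembly factor that deposits histones behind the fork, stood at 0.09 and -0.10, and SLBP, which binds the stem-loop of histone mRNAs, at 0.12. DTL, the adaptor through which the CRL4 ubiquitin ligase destroys CDT1 on PCNA, measured 14.6, 14.9 and 14.6 FPKM in DMSO and 19.7, 33.4 and 20.2 FPKM in PRMT5i. Every PRMT5i library was higher, replicate 2 by far (log2 fold change 0.66, SE 0.21, adjusted p = 0.0762; 0.42 and 0.0034 without it). CLSPN, which encodes claspin, the mediator between a stalled fork and the CHK1 kinase, measured 6.71, 6.80 and 6.75 FPKM in DMSO and 5.37, 7.25 and 5.71 FPKM in PRMT5i. Replicate 2 lay above all DMSO libraries and the others below (log2 fold change -0.13, SE 0.13, adjusted p = 0.493; -0.25 and 0.0314 without it).

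Replicate 2 differed from its group in most members, as it did in most of all genes tested. It lay above both other PRMT5i libraries in 17 of the 49 genes and below both in 25. Over all 13578 genes tested these counts were 5727 and 6356. The median size of its difference from the mean of replicates 1 and 3 was 0.26 on the log2 scale, against 0.08 between those replicates. Over all genes tested these medians were larger, 0.41 and 0.12. The difference went with gene length, as a description over genes that share these libraries: Pearson's r with log2 length was 0.41 and Spearman's rho 0.43 over the 49 members, and 0.11 and 0.28 over all 13578 genes tested. The median difference was -0.26 in the 16 shortest members (up to 3264 bases), -0.05 in the next 16 and 0.02 in the 17 longest. PRIM1, at 2437 bases, lay above this pattern (0.64), as did POLE2 (2955 bases, 0.44) and ORC1 (3157 bases, 0.43). The part of length in any member's fold change was not tested. After a smooth trend on length was taken out of every library, 8 members rose and 1 fell, with a median log2 fold change of 0.17, and after quantile normalization 9 rose and 1 fell, with a median of 0.18.

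**Figure D4:**
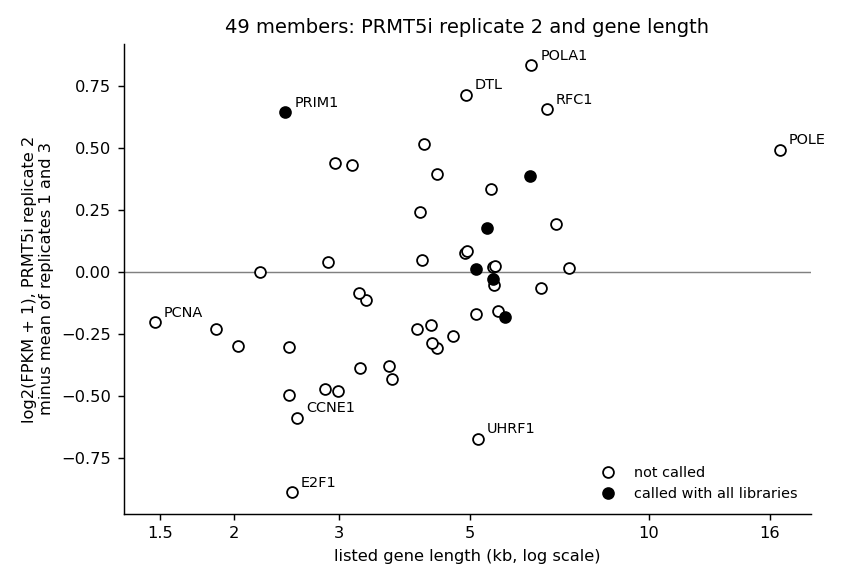
Difference of log2(FPKM + 1) between PRMT5i replicate 2 and the mean of PRMT5i replicates 1 and 3, against listed gene length in kilobases on a log axis, for the 49 genes, with those called with all libraries filled. Points run from E2F1 below 0 to POLA1 above 0, and short genes lie mostly below 0.

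The promoters of these genes were searched for the letters of E2F sites. The genes were chosen by role and not by sequence. Many genes of these roles are under E2F control, so the choice and the matches are not independent. Promoter windows of 300 bases, 250 before to 50 after a gene's start, came from RefSeq on GRCh38.p14 and were found for 43 of the 49. CCNE2, MCM5, MCM4, GINS4, POLD3 and E2F8 were not matched. Windows were searched on both strands for TTTCCCGC, TTTGGCGC, TTTCGCGC and TTTGCCGC, the letters of E2F sites, where matches on opposite strands can overlap. Of the 43 genes, 22 (51.2%) held a match, against 1090 of 27305 genes with a window (3.99%). The CCAAT box, which NF-Y binds, was in 26 of 43 (60.5%), against 39.7% of all genes. A match is a run of letters and not a measured binding site. Other spellings of an E2F site were not searched, so genes without a match, PRIM1 among them, may still hold such a site. A match was found in 2 of the 5 genes that rose, in the 1 that fell and in 19 of the 37 not called. The median log2 fold change was -0.05 with a match and 0.03 without. Shown are 230 bases from 200 before to 30 after the start, 5′ to 3′ on the gene's strand, with E2F matches in capitals, for the largest rise with all libraries (PRIM1, chr12:56752294-56752523, minus strand, which held none), the fall (GINS3, chr16:58392271-58392500, plus strand) and the 2 other called genes with a match (POLA2, chr11:65261762-65261991, plus strand, and E2F2, chr1:23531204-23531433, minus strand).
PRIM1: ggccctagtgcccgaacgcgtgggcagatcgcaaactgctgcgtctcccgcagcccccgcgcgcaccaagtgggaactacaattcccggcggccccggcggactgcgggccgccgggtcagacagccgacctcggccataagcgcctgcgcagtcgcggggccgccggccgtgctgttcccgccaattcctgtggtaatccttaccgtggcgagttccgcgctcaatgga
GINS3: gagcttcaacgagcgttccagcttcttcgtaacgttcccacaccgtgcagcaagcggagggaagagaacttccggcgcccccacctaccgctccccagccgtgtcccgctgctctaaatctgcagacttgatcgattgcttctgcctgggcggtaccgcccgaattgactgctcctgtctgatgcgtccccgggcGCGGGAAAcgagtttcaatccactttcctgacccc
POLA2: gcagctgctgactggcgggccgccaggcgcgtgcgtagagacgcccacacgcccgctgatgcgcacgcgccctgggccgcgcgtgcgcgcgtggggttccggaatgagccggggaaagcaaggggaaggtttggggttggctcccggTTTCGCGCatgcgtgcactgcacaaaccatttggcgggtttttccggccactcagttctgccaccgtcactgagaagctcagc
E2F2: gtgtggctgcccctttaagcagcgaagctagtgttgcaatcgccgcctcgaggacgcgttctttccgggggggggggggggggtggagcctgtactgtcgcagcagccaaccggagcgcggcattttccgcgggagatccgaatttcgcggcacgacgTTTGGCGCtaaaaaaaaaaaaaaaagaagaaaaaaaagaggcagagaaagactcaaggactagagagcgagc
Counted from the RefSeq start, the E2F matches begin at position -5 in GINS3, -53 in POLA2 and -42 in E2F2. For GINS3 this start is not the listed one. Its window at chr16:58392271-58392500 lies inside the listed span, chr16:58295080-58406144, far downstream of that span's start. GINS3 fell, and POLA2 and E2F2 rose. The part of E2F factors in these changes was not tested.

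Other genes of the same processes, 80 tested in all and listed by role, gave 6 calls with all libraries (7.5%, against 17.2% of all genes tested). Of 16 tested genes of licensing and firing, 0 rose and 1 fell. That gene was MCMBP, which binds MCM proteins outside the ring, at 19.7, 20.2 and 18.6 FPKM in DMSO and 11.5, 12.4 and 11 FPKM in PRMT5i (log2 fold change -0.70, SE 0.10, adjusted p = 0.0094). Of 15 fork genes 1 rose, ATAD5, which unloads PCNA (0.72, adjusted p = 0.0469). Of 14 further nucleotide supply genes 2 rose, among them IMPDH2, of guanine nucleotide synthesis (0.51, adjusted p = 0.0297). Of 21 G1/S control genes 1 fell, E2F4, a repressor E2F, at 27.3, 25.9 and 31.4 FPKM in DMSO and 15.4, 7.05 and 16.4 FPKM in PRMT5i (-1.14, SE 0.30, adjusted p = 0.0476). Its groups did not overlap, and replicate 2 was the lowest. Of 8 checkpoint kinases and clamp genes 1 fell, HUS1, part of the checkpoint clamp (-0.56, adjusted p = 0.0361). Of 6 chromatin replication genes limma called 0, with 2 at an unadjusted p under 0.05, and limma-voom 1. The most abundant, ASF1B, a histone chaperone, measured 20.6, 22.3 and 23.8 FPKM in DMSO and 46.0, 27.7 and 47.3 FPKM in PRMT5i (0.79, adjusted p = 0.0532). Replicate 2 lay nearest to DMSO, and without it ASF1B rose by 1.04 on the log2 scale (adjusted p = 0.00054). Without replicate 2 these lists gave 17 genes that rose and 18 that fell, 43.8% of the 80, near the 40.6% of all genes.

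For comparison with the next phases of the cycle, 30 mitotic G2/M genes were taken from a list of the same kind. They gave 1 rise, TOP2A, the topoisomerase that untangles sister DNA (log2 fold change 0.66, adjusted p = 0.0354), and 1 fall, PLK1, the mitotic kinase (-0.61, adjusted p = 0.0462), with a median of -0.04. Without PRMT5i replicate 2, 6 of the mitotic genes rose and 7 fell, beside 11 and 3 of the 49 replication genes. The mitotic genes called were 6.67% with all libraries, against 17.2% of all genes, and 43.3% without replicate 2, near the 40.6% of all genes. The difference between the groups of genes was not tested.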

How the data were processed

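Libraries were made from total RNA with a strand-preserving kit, per the labels' protocols, and hg38 is the build in the submitters' processing notes. For the aligner, counter, annotation release and strand setting, the sources used here give nothing. The authors deposited 1 table of FPKM values per gene and library, and log2 values were computed from it. FPKM times the listed length in kilobases times 1 factor per library (13.4 to 16.4) gave whole reads in 100% of values (tolerance 0.01 reads).

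The 49 members, their roles and the other lists were chosen with earlier results of these data known. Genes that reached 1 FPKM in at least 3 libraries were fitted as log2(FPKM + 1), PRMT5i minus DMSO, with limma 3.58.1 in R 4.3.3 (lmFit, then eBayes with trend; two-sided; no replicate term), adjusted by Benjamini-Hochberg over all 13578 genes tested with a threshold of 0.05. Fold changes on this scale understate those of low genes. Subunit shares are percentages of a complex's summed FPKM, computed here from the deposited values. A share set against that of another gene depends on the listed lengths.

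Values in every library are given for members called with all libraries and for up to 2 per role called only without PRMT5i replicate 2. Of each further list, up to 3 called genes with the smallest adjusted p are named, or the most abundant if none was called. Of these, 1 gene that this rule names is not reported here. A few more values were given after they were seen: UHRF1, POLE, RFC1 and RRM1.

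The fit was tested on simulated data for all 13578 genes, of which 200 were changed, with a dispersion of 0.01 in every replicate. It found 26.9% of the changes of 1.5-fold, 63.8% of those of 2-fold and 85.3% of those of 4-fold, and 8 of its 127 calls were false. Those shares do not carry over directly. The simulated replicates were alike, while PRMT5i replicate 2 stood apart in the data, and far more genes were called in the data. Alternatives were pseudocounts, filters, TPM, quantile scaling, a length trend (loess, span 0.3), limma with no trend or a robust prior, a replicate block, limma-voom, a threshold of 0.01, and leaving out each library. Leaving out PRMT5i replicate 2 together with quantile scaling or the length trend was chosen after seeing the data. Python 3.11.15, numpy 2.4.6, pandas 2.3.3 and matplotlib 3.10.9 were also used.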

Additional observations from a re-analysis of the deposited data

How the results depend on the processing

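The 6 called genes kept their sign in all alternatives that tested them. The count of members called, 5 higher and 1 lower, was the same under both other pseudocounts, TPM, limma with no trend or a robust prior, and limma-voom on recovered reads, which called 2554 genes in all. Without a filter on low values 3 members were higher, and 861 genes lower in all. A filter at 5 FPKM left 43 members tested, without GINS3 and POLA2, of which 4 were higher and 0 lower, and 446 genes were higher in all. At a threshold of 0.01, 1 member was higher and 218 genes were higher and 325 lower in all. With quantile normalization 9 members were higher, and with the length trend removed 8. Without PRMT5i replicate 2, the length trend removed gave 13 members higher and 2 lower, and 2612 genes higher and 2916 lower in all, and quantile normalization gave 18 members higher and 2712 genes higher and 2767 lower in all. Leaving out 1 library gave 0 (without DMSO replicate 1) to 11 (without PRMT5i replicate 2) members higher, 0 to 3 members lower, 214 to 2372 genes higher and 264 to 3141 genes lower in all. An arm left with 1 pair of libraries was assumed to vary like the other group. The cause of these shifts was not tested.

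With the replicate block, 5 members were higher and 1 lower, and 606 genes were higher and 872 lower in all. Same-numbered libraries did not deviate together in every pair (r = -0.02, 0.16 and 0.25). Between unlike-numbered libraries r ran from -0.21 to 0.09, below the 0.16 and 0.25. These values do not settle whether the libraries were paired, and the numbers were not taken to pair them. Of the 2 fits planned on recovered reads, limma-voom was run. The quasi-likelihood count model was not run, since it was kept for files deposited as counts.

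Log2 fold changes that changed sign all belonged to genes not called with all libraries. With TPM they were PRIM2 (-0.0121), POLD2 (-0.0074), RFC2 (-0.0308), RFC5 (-0.0094) and TK1 (-0.0175). With quantile normalization they were MCM3 (0.17), MCM5 (0.028), CDC45 (0.13), POLE (0.0937), PCNA (0.0398), RFC3 (0.0575), RFC4 (0.067) and FEN1 (0.0133). With the length trend removed they were MCM3 (0.10), CDC45 (0.13), GINS1 (0.026), PCNA (0.0246), RFC3 (0.0371), RFC4 (0.0506) and CCNE2 (0.0468). Without PRMT5i replicate 2 and with the length trend removed they were MCM3 (0.16), CDC45 (0.17), GINS1 (0.0488), RFC4 (0.11), FEN1 (0.0182) and CHAF1B (0.0008). Without it and with quantile normalization they were MCM3 (0.25), CDC45 (0.26), GINS1 (0.0383), PCNA (0.0614), RFC3 (0.0028), RFC4 (0.18) and FEN1 (0.12). Leaving out 1 library at a time gave ranges of -0.078 to 0.12 for MCM3, -0.12 to 0.14 for CDC45, -0.13 to 0.0114 for GINS1, -0.0717 to 0.10 for PRIM2, -0.0688 to 0.17 for POLD2, -0.19 to 0.11 for POLE, -0.05 to 0.0714 for RFC2, -0.20 to 0.0725 for RFC4, -0.0261 to 0.0783 for RFC5, -0.0494 to 0.093 for TK1, -0.16 to 0.14 for CCNE2 and -0.13 to 0.34 for E2F1.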
